A study of Mus musculus with 1073 samples.

Results

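Immediate early genes were followed across the 13 sorted yolk sac populations of the series. The 10 members, chosen by name, were Fos, Fosb, Jun, Junb, Jund, Egr1, Atf3, Ier2, Dusp1 and Zfp36, and all 10 were present among the 15967 genes of the filtered table. The measurements were full-length single-cell RNA-seq libraries of mouse yolk sac cells captured on Fluidigm C1 circuits after flow sorting, with 1 cell per library. Of 1073 captured cells, 926 had passed the quality filter of the authors.

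Mesoderm cells that carried green fluorescent protein (Flk1-GFP+) came from E7.25 and E7.75 yolk sacs of Flk1-GFP/+ embryos, in which the reporter is expressed from the Flk1 (Kdr) locus. These 2 stages had been dissociated with trypsin. All other cells came from untreated C57BL/6 yolk sacs dissociated with collagenase/dispase, and comprised haematopoietic progenitor cells (HPC, labelled erythro-myeloid progenitors) of E8.25, E8.5, E9.5 and E10.5, primitive erythrocytes (EryP) and megakaryocytes (Mk) of E8.5 and E10.5, endothelium (Endo) of E8.5 and E10.5, and macrophages (Mac) of E10.5. The sort gates were TER119+ for EryP, CD41+ without CDH5 or CD45 for Mk, CD45+ without CD41 for Mac and CDH5+ without the blood markers for Endo. The HPC gates differed with stage, being CDH5+ at E8.25 and E8.5 and CD45+ CD41low without CDH5 at E10.5. No embryo or pool is named for any cell, so each population counts as 1 sample, no test between populations was possible, and the intervals given here cover counting error only. E7.25 and E7.75 cells were each sequenced in 2 lanes. The labels name no circuit, and each of these lanes is taken here as 1 capture. The fold between these captures is the only measure of spread available. Whether it spans separate preparations is not stated, and it was not measured in the other populations.

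Immediate early genes are transcribed within minutes of a signal, without new protein synthesis, and their transcripts are short-lived. Growth factors act on them largely through MAP kinases, serum response factor with its ternary complex partners, and CREB. Fos, Fosb and Atf3 can each pair with Jun, Junb or Jund to form AP-1 transcription factors. Egr1 is a zinc finger factor, Ier2 a nuclear protein, Dusp1 a phosphatase that inactivates MAP kinases, and Zfp36 (tristetraprolin) an RNA-binding protein that speeds the decay of AU-rich transcripts. The same genes respond to cell dissociation, shear stress and heat, and endothelial cells are known for a strong response to flow.

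In GENCODE M21 annotation (GRCm38) Fos lies at chr12:85473890-85477273 on the plus strand with 4 exons, and Fosb at chr7:19302696-19310051 on the minus strand. Jun (chr4:95049034-95052222, minus strand), Junb (chr8:84974484-84978718, minus strand), Jund (chr8:70698949-70700616, plus strand) and Ier2 (chr8:84661331-84662852, minus strand) each have a single exon. Atf3 (chr1:191170296-191218039), Dusp1 (chr17:26505590-26562128) and Zfp36 (chr7:28376784-28380253) lie on the minus strand. An annotated gene on the opposite strand overlaps Jun (Junos), Junb (Prdx2), Jund (Gm11175), Zfp36 (Gm44710), Dusp1 (Ergic1 among them) and Atf3 (Gm24748). These overlaps are between whole genes from start to end, introns included, and overlap of exons was not examined. The counting is not stated to use strand, and whether reads of these partners entered the member counts was not tested.

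Sequence before the RefSeq transcription start is shown for the members with a matched motif, as these elements are known inputs of immediate early genes. RefSeq promoters (GRCm38.p6) of 8 of the 10 members were used, with Egr1 and Ier2 left out. The 250 bases before the transcription start were searched on both strands, so elements further upstream were not covered. The core TGACG of the cyclic AMP response element was found in 5 of 8 members (Fos, Fosb, Junb, Atf3 and Dusp1) and in 17.8% of all 32851 promoters. The full element TGACGTCA, which contains this core, was found in Dusp1 alone of the 8 members (1.55% of all promoters). The CArG box, the element bound by serum response factor, was found in Zfp36 alone of the 8 (1.47% of all promoters), TATAAA in Fos alone (12.4%), and the AP-1 element TGACTCA in none of the 8 (4.46%). Capitals mark TGACG (or its reverse complement) in Fos, Fosb, Junb and Atf3, TGACGTCA in Dusp1 and the CArG box in Zfp36. In the GENCODE annotation all 30 bases shown for Zfp36 and 7 of the 17 shown for Atf3 lie in an exon of the gene itself.
Fos (chr12:85473640-85473889, plus strand): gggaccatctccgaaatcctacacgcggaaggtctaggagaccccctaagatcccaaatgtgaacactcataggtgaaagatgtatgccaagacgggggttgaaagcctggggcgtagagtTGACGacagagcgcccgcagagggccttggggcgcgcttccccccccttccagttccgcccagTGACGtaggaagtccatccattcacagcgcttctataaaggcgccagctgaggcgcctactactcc
Dusp1 (chr17:26508520-26508722, minus strand): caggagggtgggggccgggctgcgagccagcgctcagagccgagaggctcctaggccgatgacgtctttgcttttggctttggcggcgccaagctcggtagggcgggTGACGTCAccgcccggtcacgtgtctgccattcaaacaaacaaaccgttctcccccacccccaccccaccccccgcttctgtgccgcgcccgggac
Zfp36 (chr7:28379267-28379296, minus strand): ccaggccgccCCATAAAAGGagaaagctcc
Fosb (chr7:19310091-19310115, minus strand): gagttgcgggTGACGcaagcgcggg
Junb (chr8:84978840-84978864, minus strand): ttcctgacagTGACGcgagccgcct
Atf3 (chr1:191183334-191183350, minus strand): aatagcattaCGTCAgc

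Total counts per cell ranged from 483830 to 5943204 (median 1887347.5). Levels are the deposited CPM, that is counts scaled by library size, here with scran size factors. The label of each population was checked against its markers: the 6 endothelial markers were detected on average in 100% and 99.5% of E8.5 and E10.5 Endo cells, and the 4 macrophage markers in 98% of Mac cells. The 4 erythroid markers (Alas2 and embryonic globins) were detected in 98.6% of E8.5 Mk cells with a summed level of 34558 CPM, against 108364 CPM in E8.5 EryP, and in 84.0% of E10.5 Mac cells with a summed level of 38.1 CPM. They were also detected in 71.2% of E8.25 HPC cells (4473 CPM) and 75.0% of E8.5 HPC cells (3754 CPM), and endothelial markers in 85.8% of the cells of both HPC populations. Both Xist and Y-linked transcripts (5 counts or more of each) were found in 293 of the 926 cells and in 59 of the 79 E8.5 Endo cells. These libraries thus hold reads of both sexes, and the source of these reads was not tested. Only 3 of 25 captured E10.5 EryP cells passed the filter. E10.5 Mac and EryP shared a lane. The first flow cell held all libraries of E7.25, of E8.25 and of E8.5, and the second those of E7.75, of E9.5 and of E10.5, so stage and sequencing run cannot be told apart wherever a comparison crosses them.

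The lowest summed levels were found in E8.5 EryP, in both trypsin-dissociated mesoderm populations and in E8.25 HPC, and the highest in E10.5 Endo, Mk and Mac. The summed mean level of the 10 genes was 110 CPM in E7.25 and 83.4 CPM in E7.75 Flk1-GFP+ cells, 90.5 CPM in E8.25 HPC and 81.8 CPM in E8.5 EryP. It was 155.8 CPM in E8.5 HPC, 474 CPM in E9.5 HPC and 274 CPM in E10.5 HPC. E8.5 Endo and E8.5 Mk were at 354 and 370 CPM, and E10.5 Mac, E10.5 Mk and E10.5 Endo at 640, 648 and 728 CPM. From lowest to highest the 12 populations with 25 cells or more spanned 8.90-fold. The captures of a stage differed by 1.58-fold at E7.25 and 1.85-fold at E7.75, and none of the 11 steps between neighbours in this order exceeded 1.85-fold, so no neighbouring pair can be separated.

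**Figure D1:**
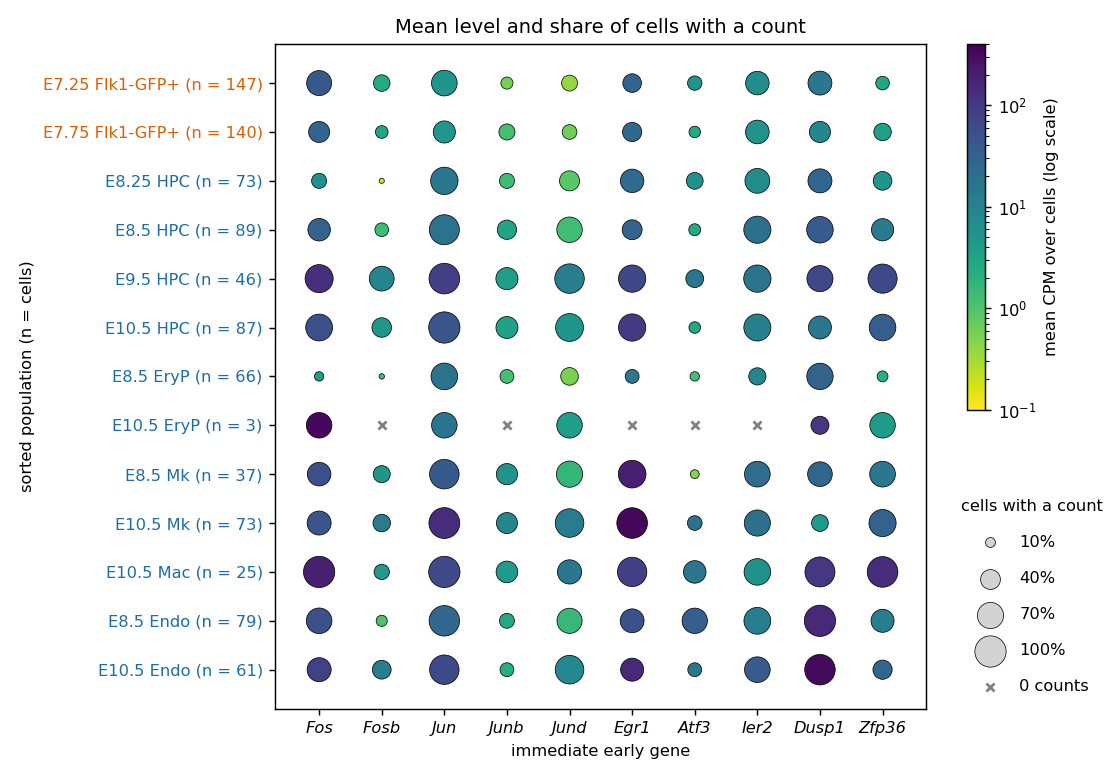
Mean level (colour, CPM on a log scale) and share of cells with at least 1 count (dot area) of the 10 immediate early genes (columns) in the 13 sorted populations (rows, n = cells; orange labels trypsin, blue labels collagenase/dispase). Dusp1 stands out in both Endo rows (161 and 322 CPM), Egr1 in both Mk rows (201 and 350 CPM) and Fos and Zfp36 in Mac (193 and 143.01 CPM); crosses mark genes with 0 counts in the 3 E10.5 EryP cells.

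Cells of a population differed widely. The median cell had a summed level of 54.9 CPM at E7.25, 29.2 CPM at E7.75, 48.0 CPM in E8.5 EryP, 283 CPM in E8.5 Endo, 338 CPM in E10.5 Endo, 422 CPM in Mac and 482 CPM in E10.5 Mk. The highest cell reached 4796 CPM in E10.5 Endo and 1636 CPM at E7.75. The cells with the highest sum (the top 10.0% of each population, rounded up) held between 28.5% (E10.5 HPC) and 52.7% (E7.75 Flk1-GFP+) of the summed level of their population. The ranges of single cells overlapped between all populations.

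**Figure D2:**
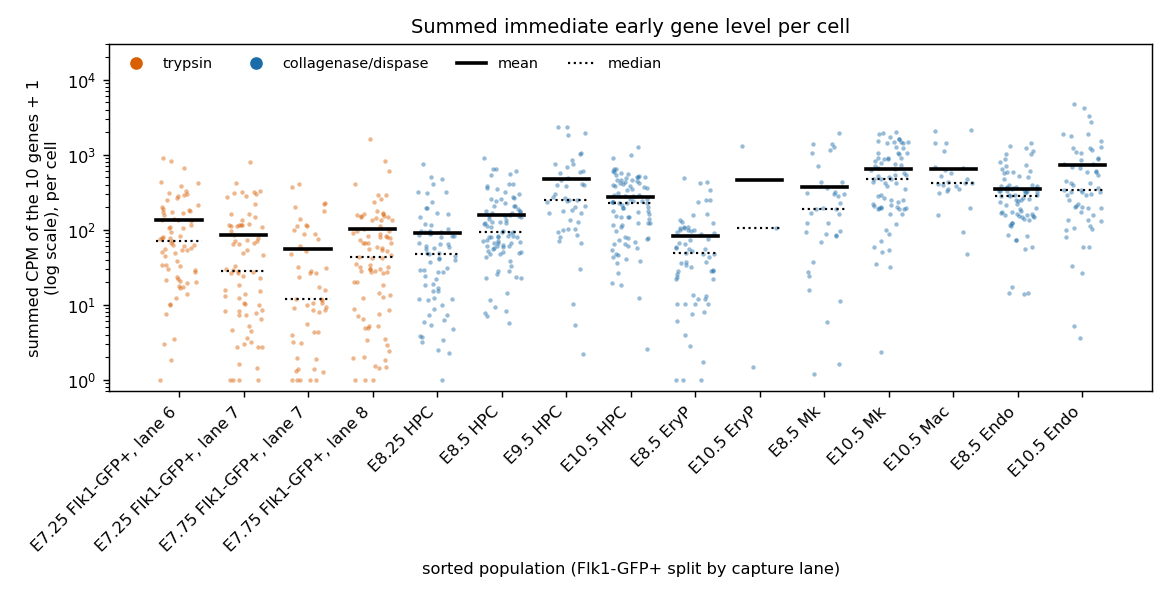
Summed CPM of the 10 genes plus 1 (log scale) in every cell, by population, with Flk1-GFP+ cells split by capture lane (orange, trypsin; blue, collagenase/dispase; solid line, mean; dotted line, median). The 4 trypsin captures have means between 54.5 and 134.8 CPM, and the ranges of single cells overlap between all populations.

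Detection was also lowest in E8.5 EryP and the mesoderm, and highest in Mac and E9.5 HPC. On average over the 10 genes, 27.9% of E8.5 EryP cells, 34.6% of E7.75, 39.0% of E7.25 and 41.0% of E8.25 HPC cells had a count, against 72.0% of E9.5 HPC and 73.2% of Mac cells. After each cell was thinned to 840000 counts these averages were 25.2%, 28.5%, 34.3%, 34.9%, 63.6% and 60.8%. At least 8 of the 10 genes were detected in 13 of 25 Mac cells (52.0%, exact 95% interval 31.3% to 72.2%) and 22 of 46 E9.5 HPC cells (47.8%, 32.9% to 63.1%). The same held for 4 of 140 E7.75 cells (2.86%, 0.784% to 7.15%) and 0 of 66 E8.5 EryP cells (upper bound 5.44%). Thinning lowered the share to 20.0% in Mac and 26.7% in E9.5 HPC.

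Fos, the prototype of the family, was detected in all 25 Mac cells, with a mean of 193 CPM, a median of 82.9 CPM and a highest cell of 1269 CPM. In E9.5 HPC the mean was 130.9 CPM and the median 15.55 CPM, with a count in 80.4% of cells (66.1% to 90.6%). Mac was thus the only population of 25 cells or more with Fos in each cell. Fos means lay between 42.3 and 81.9 CPM in E7.25 Flk1-GFP+, E10.5 HPC, both Mk and both Endo populations, and these 6 populations could not be ordered. E8.5 HPC and E7.75 Flk1-GFP+ were at 29.5 and 28.1 CPM. Below a gap of 4.63-fold, larger than the 2.28-fold between captures, came E8.25 HPC at 6.06 CPM (17 of 73 cells with a count) and E8.5 EryP at 4.06 CPM (6 of 66 cells). The 3 E10.5 EryP cells had 914, 89.4 and 0 CPM of Fos, so their mean of 334 CPM rested on a single cell. That cell also held 319 CPM of Dusp1, while Fosb, Junb, Egr1, Atf3 and Ier2 had 0 counts in all 3 cells (exact upper bound of the share 70.8%).

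Fosb, a close relative with the same partners, was rarer. Its mean was 13.0 CPM in E10.5 Mk and 11.7 CPM in E10.5 Endo, where single cells reached 535 and 319 CPM and the medians were 0. The gene was detected most often in E9.5 HPC, in 29 of 46 cells (63.0%, 47.5% to 76.8%), at a mean of 9.08 CPM. It was found in 2 of 73 E8.25 HPC cells and 2 of 66 E8.5 EryP cells.

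The Jun genes encode the partners of Fos. Jun was detected in at least 50.0% of the cells of each population, with a count in 100% of E10.5 HPC and Mac cells, 97.3% of E10.5 Mk and 95.7% of E9.5 HPC cells, and in 67.3% and 50.0% of E7.25 and E7.75 cells. Its mean was 143.5 CPM in E10.5 Mk (median 100.9 CPM), 89.1 CPM in E9.5 HPC and between 46.6 and 64.3 CPM in E10.5 HPC, Mac and E10.5 Endo. E8.5 populations and E8.25 HPC lay between 15.3 and 39.1 CPM. Both trypsin populations were lower, at 5.35 CPM (E7.25) and 4.91 CPM (E7.75). The 2.87-fold step up to E8.25 HPC exceeded the 2.32-fold between captures, but the E8.25 HPC mean rested on few cells. There the median was 3.85 CPM and the highest cell reached 482 CPM. After thinning the means lay closer together, at 9.11 CPM in E8.25 HPC and 5.345 CPM at E7.25, so this step does not separate them. The measured levels of Junb and Jund stayed low. Jun, Junb and Jund each overlap an annotated gene on the opposite strand, and the effect of this on their counts was not tested. Junb did not exceed 9.18 CPM (E10.5 Mk), and Jund ranged from 0.381 CPM (E7.25) to 15.6 CPM (Mac). Per kilobase of exon, mean levels in E10.5 Mk were 45.0 CPM for Jun, 7.73 CPM for Jund and 3.99 CPM for Junb, and Jun exceeded both relatives in each of the 13 populations. Jund was detected in 83.6% of E10.5 Mk and E10.5 Endo cells against 25.9% of E7.25 cells, although the Mac mean rested on few cells: the median Mac cell had 0.638 CPM and the highest 298 CPM.

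Egr1 had the highest mean of the members in both megakaryocyte populations. Its mean level was 350 CPM in E10.5 Mk, where 70 of 73 cells had a count and the median was 150 CPM. In E8.5 Mk the mean was 201 CPM and the median 10.53 CPM, below the Jun median of 25.2 CPM. The top 4 of 37 E8.5 Mk cells held 65.9% of the Egr1 level. E10.5 Endo followed with a mean of 159 CPM, yet only 33 of 61 cells had a count, the median was 0.616 CPM and 1 cell reached 3535 CPM. At least 10 counts of Egr1 were found in 74.0% of E10.5 Mk cells and 24.6% of E10.5 Endo cells. The top 7 of 61 cells held 85.8% of the level in E10.5 Endo, against 40.3% for the top 8 of 73 cells in E10.5 Mk. Egr1 lay at 97.3 CPM in E10.5 HPC and 86.8 CPM in Mac, at 67.9 CPM in E9.5 HPC and at 51.5 CPM in E8.5 Endo. In the other populations of 25 cells or more it lay between 14.8 and 28.9 CPM. No step between neighbours exceeded the 2.48-fold between captures.

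Atf3, a stress-induced repressor of the same family, was highest in E8.5 Endo. Its mean there was 34.0 CPM with a count in 52 of 79 cells (65.8%, 54.3% to 76.1%), against 14.4 CPM and 12 of 61 cells (19.7%, 10.6% to 31.8%) in E10.5 Endo. In no other population of 25 cells or more did the share exceed the 52.0% of Mac. In E8.5 Mk, 3 of 37 cells had a count. Ier2 varied least, from 5.65 CPM at E7.75 to 38.4 CPM in E10.5 Endo, a 6.81-fold range, and no neighbouring pair exceeded the 2.91-fold between captures.

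Dusp1 was the leading member of the endothelium. Its mean was 161 CPM in E8.5 Endo, with a count in all 79 cells and a median of 127.5 CPM, and 322 CPM in E10.5 Endo, with a count in 58 of 61 cells and a median of 143.3 CPM. At least 100 CPM was reached by 59.5% and 60.7% of these cells. In no other population of 25 cells or more did this share exceed 12.0% (Mac). Mac had a mean of 108.5 CPM but a median of 13.3 CPM, with a highest cell of 2043 CPM. At the low end, E10.5 Mk had 4.27 CPM with a count in 21 of 73 cells. This was 75.5-fold below E10.5 Endo, and Dusp1 and Egr1 thus stood in opposite order in these lineages. Both Endo populations hold cells with transcripts of both sexes, and without those cells the log2 ratio of E8.5 Endo to E8.5 HPC was 2.47, against 2.06 with them.

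Zfp36 was highest in Mac, with a mean of 143.01 CPM, a median of 33.3 CPM, a highest cell of 1219 CPM and a count in 24 of 25 cells. E9.5 HPC followed at 64.0 CPM (median 29.9 CPM, 40 of 46 cells), and then E10.5 HPC, E10.5 Mk and E10.5 Endo at 34.3, 30.2 and 25.7 CPM. Flk1-GFP+ cells and E8.5 EryP lay at 3.74 CPM or less. The captures, all of Flk1-GFP+ cells, agreed within 1.38-fold for Zfp36, and 5 of its 11 steps between neighbours were larger, the most of any member. The spread in the other populations is not known, so this does not order them. The top 3 of 25 Mac cells held 78.0% of the level. E10.5 Endo had a higher mean than E8.5 Mk but a median of 0 CPM, against 1.05 CPM.

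**Figure D3:**
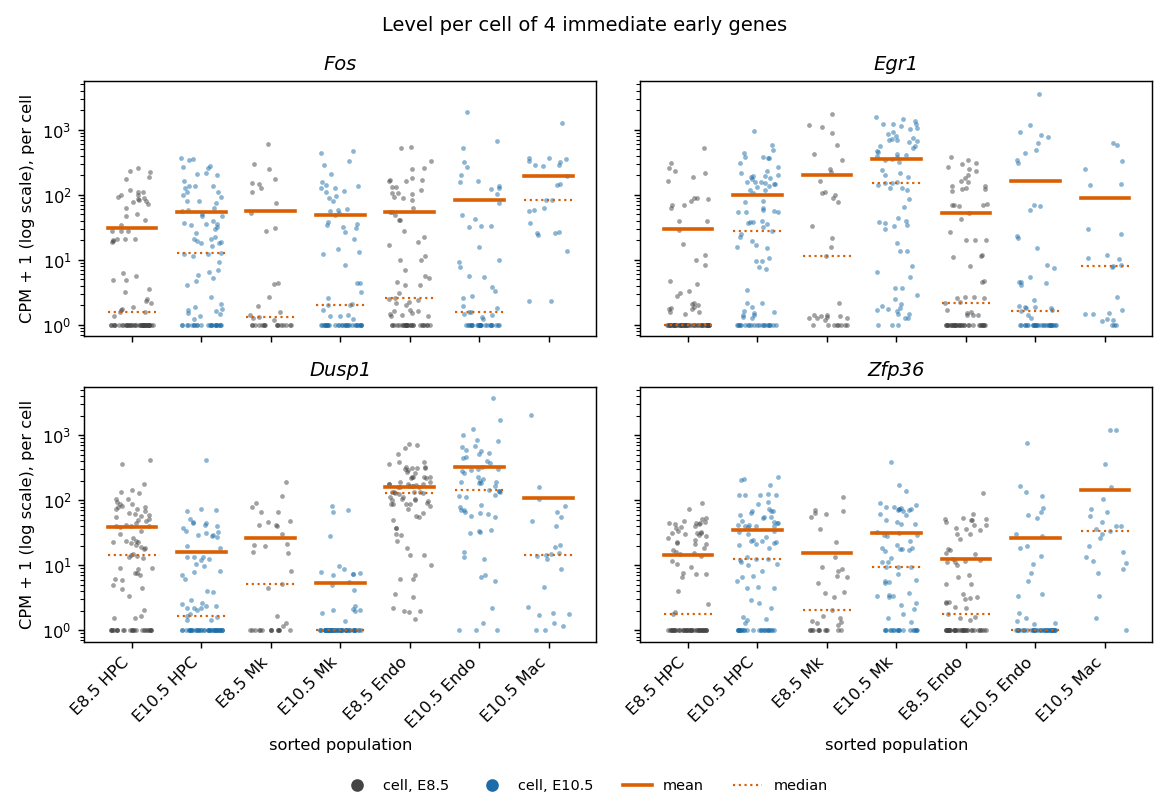
CPM plus 1 (log scale) of Fos, Egr1, Dusp1 and Zfp36 in every cell of 7 populations (grey, E8.5; blue, E10.5; solid line, mean; dotted line, median). Dusp1 is present in nearly all Endo cells (medians 127.5 and 143.3 CPM), whereas the Egr1 mean of E10.5 Endo (159 CPM) lies far above its median (0.616 CPM).

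Dissociation with trypsin was next set beside dissociation with collagenase/dispase within each flow cell. Enzyme, digestion time, stage, genotype and cell type all change together between these groups and cannot be told apart. On the first flow cell, the E7.25 Flk1-GFP+ mean of Jun, Junb, Jund and Dusp1 lay below all 5 collagenase/dispase populations, in both captures. Fos went the other way for 3 of the 5: E7.25 cells, at 38.3 and 46.4 CPM in the captures, were above E8.25 HPC, E8.5 HPC and E8.5 EryP and below E8.5 Mk and E8.5 Endo. Fosb at E7.25 (2.52 CPM) was above 4 of the 5. Comparing the mean of the 5 populations with E7.25, 3 of the 5 members that passed the filter (a mean of at least 10 CPM over both groups) were at least 2-fold higher and none was 2-fold lower, beside 19.6% of all 8673 genes past 2-fold (11.9% higher and 7.69% lower). The 3 were Jun (log2 ratio 1.93), Dusp1 (1.85) and Egr1 (1.13), whereas Fos had -0.51. The median over the 5 members was 1.13, beside 0.09 over all genes. Leaving out the capture in lane 6 moved it to 1.99.

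On the second flow cell the 3 E10.5 EryP cells were left out. Both captures of E7.75 Flk1-GFP+ cells lay below all 5 collagenase/dispase populations for Fos, Fosb, Jun, Junb, Jund, Egr1 and Zfp36, and below 4 of 5 for Atf3, Ier2 and Dusp1. All 6 members that passed the filter were at least 2-fold higher in the mean of these populations, beside 29.4% of all 9259 genes past 2-fold (21.1% higher and 8.34% lower). Their median log2 ratio was 3.01, beside 0.08 over all genes, with Jun at 3.80, Zfp36 at 3.67 and Dusp1 at 3.48. The exception was Dusp1 in E10.5 Mk (4.27 CPM), which lay below both E7.75 captures (8.83 and 7.95 CPM).

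**Figure D4:**
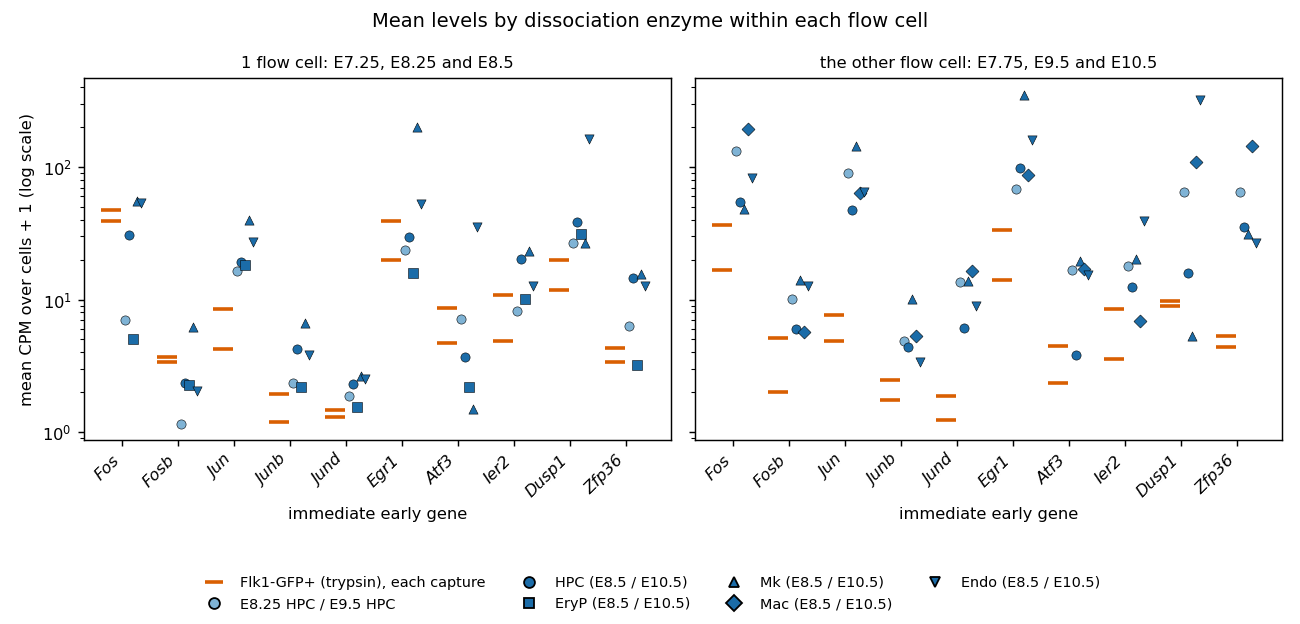
Mean CPM plus 1 (log scale) of each gene in the collagenase/dispase populations (blue symbols) and in each trypsin capture of Flk1-GFP+ cells (orange bars), separately for the flow cells and without the 3 E10.5 EryP cells. On the right, the orange bars lie below all blue symbols for 7 of the 10 genes; on the left, Fos of E7.25 lies above 3 of the 5 populations.

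The summed level of the 12 heat shock genes in the table lay between 13169 and 17691 CPM in 11 of the 12 populations of 25 cells or more. In E10.5 Endo it was 6409 CPM, of which Hsp90ab1 alone held 3506 CPM. E10.5 Endo had the highest mean summed member level in the deposited CPM (728 CPM, against 648 CPM in E10.5 Mk). With CPM from cell totals E10.5 Mk was higher (624 and 600 CPM), as it was in the median cell (482 and 338 CPM). The inducible pair Hspa1a and Hspa1b, near-identical copies whose reads can be split uncertainly, stood at 0.00859 and 0.598 CPM at E7.75 and at 28.4 and 42.0 CPM in the mean of the 5 collagenase/dispase populations of that flow cell. In E10.5 Endo they were at 1.33 and 13.2 CPM. The part of dissociation in the member levels was not tested. Of the wider set of immediate early genes, 8 of 16 that passed were at least 2-fold higher in the E9.5 to E10.5 populations than at E7.75 and 1 was lower, with Klf2 (log2 ratio 4.51) and Nfkbiz (2.94) among them. Against E7.25, 1 of 13 was higher (Btg2, 1.97) and 1 lower (Cyr61, -1.25).

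Between the trypsin-dissociated stages none of the 3 members that passed (Fos, Egr1 and Dusp1) reached 2-fold, beside 8.56% of 8414 genes (3.78% higher and 4.78% lower). Log2 ratios of E7.75 over E7.25 were -0.57 for Fos, -0.17 for Egr1 and -0.77 for Dusp1, and the sign of Egr1 turned when CPM were computed from cell totals. The E7.75 captures differed from each other by more for Fos (15.7 and 35.7 CPM) and for Egr1 (13.1 and 32.5 CPM), whereas for Dusp1 the captures stood at 19.0 and 10.8 CPM at E7.25 and at 8.83 and 7.95 CPM at E7.75.

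Along the HPC stages the mean summed level was lowest at E8.25 and highest at E9.5. The 1.73-fold between E9.5 and E10.5 was within the 1.85-fold between E7.75 captures, so these 2 stages cannot be ordered. Their median cells were close, at 247 and 228 CPM. Median total counts differed, at 3082740 (E9.5) and 1609583 (E10.5), and after thinning the summed means were 430 and 301 CPM. From E8.25 to E8.5, on 1 flow cell, 2 of 5 members that passed were 2-fold higher and none lower, beside 5.22% of 8456 genes (2.13% higher and 3.09% lower): Fos, from 6.06 to 29.5 CPM (log2 ratio 2.11), and Ier2, from 7.26 to 19.3 CPM (1.29). The share of cells with Fos was 23.3% (14.2% to 34.6%) and 51.7% (40.8% to 62.4%). From E9.5 to E10.5, on the other flow cell, 2 of 6 members were 2-fold lower and none higher, beside 12.1% of 8486 genes (4.40% higher and 7.70% lower). Fos was 130.9 CPM at E9.5 and 53.2 CPM at E10.5 (-1.28), and Dusp1 63.8 and 14.8 CPM (-2.04). With CPM from cell totals Fos was short of 2-fold (-0.84), as it was without cells of both sexes' transcripts (-0.97) and without the highest 5% of cells (-0.71). Egr1 alone of the 6 was higher, at 67.9 and 97.3 CPM (0.51). The HPC gates differed between E8.5 and E10.5, and the gate cannot be told apart from the stage. Of the wider set, 3 of 15 that passed were 2-fold lower at E10.5 than at E9.5 (Klf2 -2.13, Rhob -1.54 and Klf6 -1.50) and 2 were higher (Klf10 at 41.4 and 97.5 CPM and Sgk1 at 9.68 and 23.5 CPM at E9.5 and E10.5). Of the 12 heat shock genes 1 was lower (Dnajb1, -1.15) and none higher.

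E10.5 and E8.5 were compared within the 3 lineages sampled at both stages, across flow cells. In Endo, 4 of 7 members that passed were at least 2-fold higher and 1 lower at E10.5, beside 34.1% of 9146 genes past 2-fold (19.3% higher and 14.9% lower). Ier2 (log2 ratio 1.63), Egr1 (1.61), Jun (1.26) and Zfp36 (1.07) were higher and Atf3 (-1.19) lower, with Dusp1 just short of 2-fold (0.996). In Mk, 1 of 6 was higher and 1 lower, beside 25.9% of 8346 genes (14.6% higher and 11.4% lower): Jun (1.85) and Dusp1 (-2.34). Between these Mk populations the summed level of erythroid markers was 34558 CPM at E8.5 and 331 CPM at E10.5 (98.6% and 26.4% of cells), and that of megakaryocyte markers 389 and 6125 CPM. In HPC, 3 of 6 were higher (Egr1 1.72, Jun 1.31 and Zfp36 1.27) and 1 lower (Dusp1, -1.30), beside 18.2% of 8550 genes (7.47% higher and 10.7% lower). In E8.5 and E10.5 HPC the markers summed to 560 and 129.8 CPM for endothelium, to 3754 and 8.46 CPM for EryP and to 17.3 and 323 CPM for Mac. The part of these other cell types in the Mk and HPC ratios was not tested. The medians over the members that passed were 1.07 in Endo, 0.31 in Mk and 1.05 in HPC, and over all genes 0.04, -0.06 and -0.08. Jun was past 2-fold in each lineage, and just short of it in Endo after thinning (0.977).

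**Figure D5:**
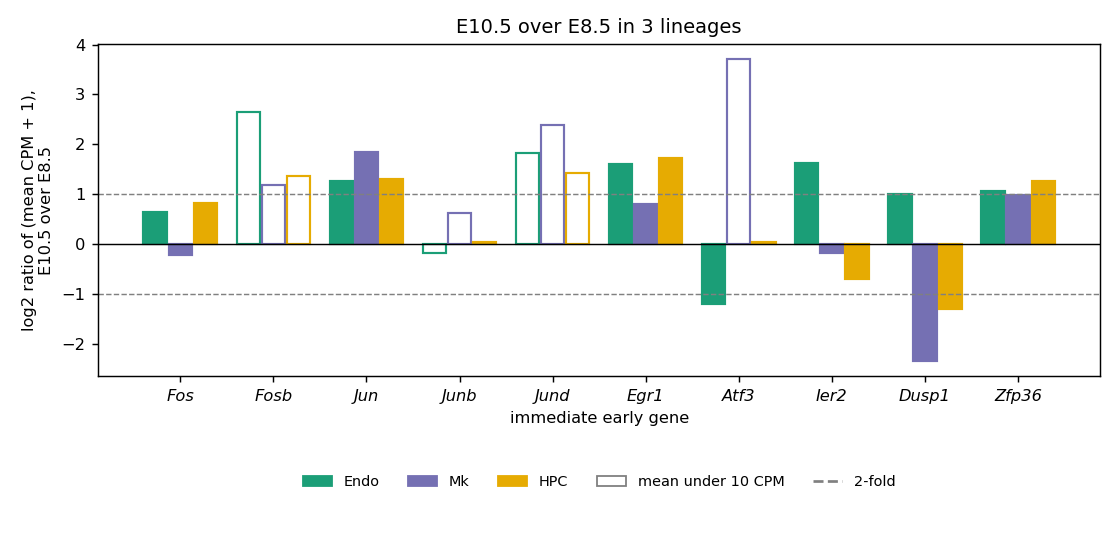
Log2 ratio of E10.5 over E8.5 mean CPM plus 1 for the 10 genes in Endo, Mk and HPC (filled bars, mean over both stages of at least 10 CPM; open bars, below it; dashed lines, 2-fold). Jun is past 2-fold in all 3 lineages (1.26, 1.85 and 1.31), while Dusp1 is positive in Endo (0.996) and negative in Mk and HPC (-2.34 and -1.30).

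Some of these ratios rested on few cells. When the highest 5% of cells were left out for each gene, Fos in Endo had a ratio of -0.24 (0.64 with all cells) and Zfp36 in Endo -0.26 (1.07), while Jun kept 1.01 in Endo, 1.86 in Mk and 1.44 in HPC. Egr1 in Endo had 0.62 in place of 1.61, and its median cell was at 1.15 CPM at E8.5 and 0.616 CPM at E10.5. In Endo, 8 of 11 heat shock genes that passed were 2-fold lower at E10.5 and none higher, led by Hsph1 (147.3 and 25.4 CPM at E8.5 and E10.5), Bag3 and Hspa5. E8.5 Endo held 59 of 79 cells with transcripts of both sexes and E10.5 Endo 26 of 61. Without them the Endo ratios were 1.38 for Jun, 1.83 for Egr1, 1.78 for Ier2, -1.15 for Atf3, 0.53 for Dusp1 and 0.43 for Zfp36.

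Lineages of 1 stage and flow cell were compared last. E8.5 Endo exceeded E8.5 HPC at least 2-fold for 2 of 7 members that passed, Atf3 (log2 ratio 3.24) and Dusp1 (2.06), and none was 2-fold lower, beside 25.3% of 8756 genes (16.0% higher and 9.27% lower). The list of feedback regulators held Dusp, Spry and Spred genes with Zfp36l1 and Zfp36l2. Of 6 that passed, 3 were at least 2-fold higher and none was 2-fold lower. These were Spry4 at 114.1 and 2.86 CPM (4.90), Dusp6 at 306 and 73.6 CPM (2.04) and Zfp36l1 (1.68). Of the wider set, 6 of 16 were higher and 1 lower, including Sgk1 (3.76), Cyr61 (3.67) and the flow-responsive Klf2 (2.00). E10.5 Mac exceeded E10.5 HPC for 4 of 6 members, beside 44.3% of 8495 genes (22.1% higher and 22.2% lower): Dusp1 (2.79), Zfp36 (2.03), Fos (1.84) and Jund (1.43), with Jun at 0.42 and Egr1 at -0.16. The share of all genes higher among those past 2-fold was 49.9%, and 38.5% with CPM from cell totals. Without cells with transcripts of both sexes Dusp1 was short of 2-fold (0.90). Without the highest 5% of cells per gene, Fos kept 1.88 and Dusp1 1.45, while Zfp36 had 0.98 and Jund 0.12. Among the feedback regulators 3 of 5 that passed were higher in Mac and 1 lower. Of the wider set, 8 of 16 were 2-fold higher in Mac and none lower, led by Mcl1 (616 and 61.9 CPM). The kinases and transcription factors upstream of the members were counted in the same way: 13 or 14 of the 15 in the table passed in the lineage comparisons, of which 4 were 2-fold higher in E8.5 Endo than in HPC and none lower, and 2 higher and 2 lower in Mac than in HPC. Other AP-1 family genes counted 1 of 3 higher in E8.5 Endo and 3 of 4 higher in Mac, with Maf at a log2 ratio of 3.28 in Mac.

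Members varied together only weakly between cells of a population. Spearman's rho over the 45 pairs of members had a median between 0.01 (Mac) and 0.28 (E8.5 Mk), and 23 (Mac) to 43 (E9.5 HPC) of the pairs were positive. Cells of a population share a library preparation and detection rises with depth, so these values are descriptions. The pair with the highest median over the 12 populations was Fos with Fosb (0.28), reaching 0.52 in E7.75 Flk1-GFP+ cells and 0.47 in E10.5 Endo and -0.39 in Mac. Fos and Egr1 had rho of 0.43 at E7.25, 0.45 in E10.5 Mk and 0.44 in E10.5 Endo, against 0.08 in E10.5 HPC and E8.5 Endo and -0.10 in Mac. At E7.25, 15 cells were among the top 15 for 3 or more members and 60 for none. The summed level had rho between -0.35 and 0.16 with the total count of the cell and between -0.16 and 0.25 with its mitochondrial share.

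Across the 12 populations, mean levels (log2 of CPM plus 1) of Jund and Zfp36 were the most alike pair of members (Pearson's r 0.93), followed by Jun and Jund (0.90). Dusp1 was least like the others, with r of 0.01 with Fosb, 0.03 with Egr1 and -0.03 with Junb. Among 9160 other genes, those most like the summed level were Kidins220 (0.94), Fuca1 (0.92), Klf2 (0.91), Neat1 (0.91) and Ebp (0.89), and those most like Fos were Tapbp (0.89), Fibp (0.88), Brip1os (0.86), Nsrp1 (0.85) and Tspyl1 (0.85). Of these, Klf2 belongs to the wider set of immediate early genes and had 0.018 CPM in E8.5 EryP and 72.3 CPM in E10.5 Endo. With 12 points that share flow cells and enzymes, these likenesses are descriptions.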

How the data were processed

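Single yolk sac cells were captured on Fluidigm C1 circuits, and libraries were made with Nextera XT. Per the submitters' processing notes, the authors used Subread and featureCounts with GRCm38. Strandedness is not given in the sources used here. The deposited count tables hold all 1073 cells and the 926 cells and 15967 genes kept with scater. The deposited CPM table holds a size-factor scaled signal (scran), whose sum per cell ranged from 699615 to 4176737 (median 988402.5). Reads carry no molecular identifiers. Members matched 10 Ensembl identifiers, and the member counts of both count tables were identical.

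Means over cells were taken per population, and log2 ratios were computed from mean CPM plus 1, for genes with a mean of at least 10 CPM over both groups; 2-fold was the limit for counting a gene, and percentages of all genes past it are given beside the members. The mean of several populations weighted each equally. Shares of cells have exact (Clopper-Pearson) 95% intervals. Counts were thinned to 840000 per cell, which left out 46 of 926 cells. Doublets were not removed; cells with 5 or more counts of both Xist and the Y-linked genes were left out as an alternative. Named genes comprised all members, at most 3 of each list per comparison, and the 5 genes most like the summed level and Fos. Members and lists were chosen with earlier results of these data known. The ratio calculation was tested on simulated counts. Analyses used Python 3.11.15, numpy 2.4.6, pandas 2.3.3 and scipy 1.17.1.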

Additional observations from a re-analysis of the deposited data

Results flagged for a closer look

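Fos, Ier2 and Dusp1 had E10.5 over E8.5 ratios of opposite sign in different lineages. Any opposite sign between lineages was counted, whatever its size, among members that passed the filter in both; the difference itself was not tested, since each population is 1 sample. For Dusp1 the log2 ratio in Endo exceeded that in Mk by 3.33 and that in HPC by 2.29. For Ier2 the ratio in Endo exceeded that in Mk by 1.81 and that in HPC by 2.34. For Fos the ratio in Endo exceeded that in Mk by 0.859, and Mk minus HPC was -1.05; without the highest 5% of cells the Fos ratio in Endo also turned negative (-0.24).

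Of the 1073 captured cells, those outside the 926 that the authors kept, which enter no comparison, also carried the members. Their mean summed level was 192 CPM of the cell total (median 28.7 CPM), against 253 CPM (median 111.7 CPM) in the kept cells. Their median total count was 470230, against 1890170 in the kept cells. Fos was found in 39.5% of the left-out and 54.8% of the kept cells. In E9.5 HPC the 12 left-out cells had a mean of 670 CPM and the 46 kept cells 433 CPM. The medians went the other way, at 151.4 CPM in the left-out and 263 CPM in the kept cells. The highest left-out cell there reached 3821 CPM. In E10.5 EryP the 22 left-out cells had a mean of 17.4 CPM and the 3 kept cells 314 CPM.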

How the results depend on the processing

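No paired analysis was possible because replicate numbers only name cells and no result came from a test. Without the highest 5% of cells per gene, summed levels were 58.6 CPM (E7.25), 35.8 (E7.75), 43.1 (E8.25 HPC), 94.3 (E8.5 HPC), 247 (E9.5 HPC), 39.4 (E8.5 EryP), 46.7 (E10.5 EryP), 243 (E8.5 Mk), 312 (Mac) and 363 CPM (E10.5 Endo); thinning gave 307 CPM in E10.5 EryP. Leaving out 1 capture gave 85.2 to 134.8 CPM at E7.25 and 54.5 to 100.9 CPM at E7.75. With 10 counts for detection, average shares were 20.6% (E7.25), 16.0% (E7.75), 18.4%, 30.2%, 47.4% and 39.4% (HPC of E8.25, E8.5, E9.5 and E10.5), 16.2% (E8.5 EryP), 37.8% and 41.2% (Mk of E8.5 and E10.5), 48.8% (Mac), and 38.2% and 35.6% (Endo of E8.5 and E10.5).

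Without the highest 5% of cells, median log2 ratios were 0.92 (E10.5 over E8.5 Mk), 0.98 (Mac over HPC) and 1.78 (E8.25 to E8.5 over E7.25), and the members past 2-fold numbered 1 (E7.75 over E7.25), 1 (E8.5 over E8.25 HPC), 1 (E10.5 over E9.5 HPC), 2 (E10.5 over E8.5 Endo) and 2 (Mac over HPC). With a pseudocount of 10 CPM the median of E9.5 to E10.5 over E7.75 was 2.27, and members past 2-fold were 1 (E8.5 over E8.25 HPC), 2 (E10.5 over E8.5 HPC) and 3 (E10.5 over E8.5 Endo). Leaving out captures gave medians of 0.72 to 1.99 for E8.25 to E8.5 over E7.25 and 0 to 2 members past 2-fold for E7.75 over E7.25. CPM from cell totals left 1 member past 2-fold for E10.5 over E9.5 HPC (Dusp1, not Fos), and thinning 3 for E10.5 over E8.5 Endo. With no filter, members past 2-fold were 4 (E8.5 over E8.25 HPC and E10.5 over E9.5 HPC), 5 (E10.5 over E8.5 Mk and E8.25 to E8.5 over E7.25) and 10 (E9.5 to E10.5 over E7.75). The shares of all genes past 2-fold given earlier belong to the main setting, so these alternative counts cannot be set against them. No median changed sign under these alternatives, and the cause of each change was not tested. CPM from cell totals raised the share of higher genes among those past 2-fold from 36.4% to 53.5% (E10.5 over E9.5 HPC) and from 41.0% to 53.8% (E10.5 over E8.5 HPC), with the median of all genes moving by 0.10 and 0.15.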
